A study of Saccharomyces cerevisiae with 8 samples.

Results

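The genes described here encode 5 proteases of the yeast vacuole and 2 small protein inhibitors of them. They were chosen by name as PEP4, PRB1, PRC1, CPS1, APE3, PBI2 and PAI3, and all 7 were found among the 6569 genes of the deposited table. Each was read in the 8 columns of scaled signal.

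Poly(A) RNA of budding yeast (Saccharomyces cerevisiae) had been sequenced to follow splicing and transcript levels when ribosomal protein genes are turned down. Cultures of BY4741, a MATa laboratory strain (ura3-delta-0 and met15-delta-0, besides leu2-delta-0 and his3-delta-0), grew at 30 °C in the rich medium YPD to an optical density of 0.5. They were left untreated or given 200 ng/mL rapamycin, which inhibits the growth-control kinase complex TORC1, for 10 or 60 min, with 2 libraries in each group. A separate pair of strains, with 1 library each, was grown at 26 °C in YPD. Both carry prp4-1, a mutation in a spliceosomal protein, and in 1 of them IFH1, an activator of ribosomal protein genes, stands under the GAL1 promoter and is labelled as lowered by about 50%. The genotype of that strain is given as k-HIS3:pGAL1-IFH1, prp4-1, with no mating type, and that of the other adds MATalpha, ade2-, leu2 with the alleles 3 and 112, ura3-52 and his3-delta-200.

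The vacuole is the lysosome of yeast. Its hydrolases are made as inactive precursors, sorted from the secretory pathway and activated by cleavage in the vacuole, where proteinase A and proteinase B start the cascade. In cells short of nitrogen they break down the cytoplasm that autophagy delivers and return its amino acids. The inhibitors are cytosolic proteins that block proteinase A or proteinase B. TORC1 restrains autophagy in well-fed cells, and rapamycin relieves that restraint.

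The stretches of DNA before the start codons of 5 members are shown because these genes cover the range of responses below, from CPS1, with the largest change, to APE3, for which no change was called. They run from 300 to 101 bases before the start codon, read 5′ to 3′ along the gene from the R64 reference, which has the coordinates of the sacCer3 gene models for all 7 members. Capitals mark GATAAG, the element of GATA factors such as Gln3 and Gat1, and AGGGG, the stress element of Msn2 and Msn4, on either strand (reversed as CTTATC and CCCCT). CPS1 and APE3 were added after their values were seen.
CPS1, chrX:97437-97636, plus strand: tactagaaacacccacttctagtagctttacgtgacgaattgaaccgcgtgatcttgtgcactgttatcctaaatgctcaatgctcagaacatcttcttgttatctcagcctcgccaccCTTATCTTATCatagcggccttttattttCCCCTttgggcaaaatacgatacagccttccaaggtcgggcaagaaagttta
PRB1, chrV:42054-42253, minus strand: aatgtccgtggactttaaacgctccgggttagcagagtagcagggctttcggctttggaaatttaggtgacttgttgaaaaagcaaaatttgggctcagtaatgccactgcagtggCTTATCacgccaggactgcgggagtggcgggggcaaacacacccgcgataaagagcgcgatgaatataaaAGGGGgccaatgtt
PEP4, chrXVI:261032-261231, minus strand: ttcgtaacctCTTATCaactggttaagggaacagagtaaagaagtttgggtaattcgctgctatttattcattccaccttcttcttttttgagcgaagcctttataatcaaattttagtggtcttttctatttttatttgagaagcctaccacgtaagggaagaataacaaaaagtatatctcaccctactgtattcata
PBI2, chrXIV:605084-605283, plus strand: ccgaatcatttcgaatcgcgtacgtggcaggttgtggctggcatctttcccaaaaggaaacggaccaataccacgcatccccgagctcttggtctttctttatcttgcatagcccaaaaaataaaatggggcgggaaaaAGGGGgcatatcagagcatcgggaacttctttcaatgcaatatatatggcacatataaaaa
APE3, chrII:774400-774599, plus strand: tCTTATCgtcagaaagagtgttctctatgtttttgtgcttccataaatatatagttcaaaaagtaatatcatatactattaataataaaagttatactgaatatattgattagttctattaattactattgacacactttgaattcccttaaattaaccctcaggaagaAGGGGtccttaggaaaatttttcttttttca

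In the 500 bases before the start codon, GATAAG was found at all 5 protease genes and at neither inhibitor gene, against 22.8% of 6000 promoters of the same length. CPS1 held it in 2 overlapping copies, 181 to 171 bases before the start codon. AGGGG was found at all 7 genes, against 34.1% of promoters, with 3 copies at PAI3 and 2 at PRC1. At PEP4 its copy lay 353 to 349 bases upstream, outside the stretch shown. AGGGAT, the core of the Gis1 element, and TGACTCA, the Gcn4 element, were in none of the 7 windows, against 15.4% and 4.0% of promoters. APE3 held both GATAAG and AGGGG, as PRB1 and PEP4 did. Such matches describe letters in a window and are not evidence of binding.

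None of the 7 genes overlaps another gene in the deposited table or in R64, and each has 1 exon. IFH1 was at 154 in prp4-1 and 86.1 in prp4-1 pGAL-IFH1 (scaled signal), in the direction of its label. Mating-type genes matched the labels where these give a mating type, with STE2 from 719.7 to 1058 in BY4741 and at 22.5 and 28.7 in the prp4-1 pair, and STE3 high in that pair instead. URA3 and MET17 were at 111 and 1495 in prp4-1 and listed at 0 in prp4-1 pGAL-IFH1, so these 2 strains differ in more than IFH1. Scaled signal summed to 3306674 and 3206357 in the untreated libraries, 2855900 and 2753329 at 10 min, and 2037245 and 2025663 at 60 min. It summed to 3319861 in prp4-1 and 3065499 in prp4-1 pGAL-IFH1. The totals thus fell with time in rapamycin, and they do not tell how many reads each library had. In these bulk cultures, more RNA per cell and more cells expressing a gene cannot be told apart. The design text calls the 2 libraries of a group biological replicates and does not describe the cultures.

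In the untreated library numbered 21 the slope of log2 scaled signal on log2 gene length was 0.106. A sum over the gene would give about 1 if expression did not vary with length, which was not tested. Whether the signal is a per-length level is thus not known, and ranks of short against long genes carry that limit. In untreated cells APE3 ranked highest of the 7 and PAI3 lowest, 264th and 4563rd of 6569 genes by mean scaled signal. PEP4, PRC1, PBI2, CPS1 and PRB1 lay between them in that order. PRC1, at 695 and 708, and PBI2, at 652 and 432, were the neighbours that differed least against their spread. By 60 min of rapamycin the order had changed. PEP4 and CPS1 then ranked 46th and 47th of 6569 genes, and their libraries overlapped. PBI2 followed, ahead of APE3 and PRC1, and PAI3 and PRB1 came last with overlapping libraries.

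**Figure D1:**
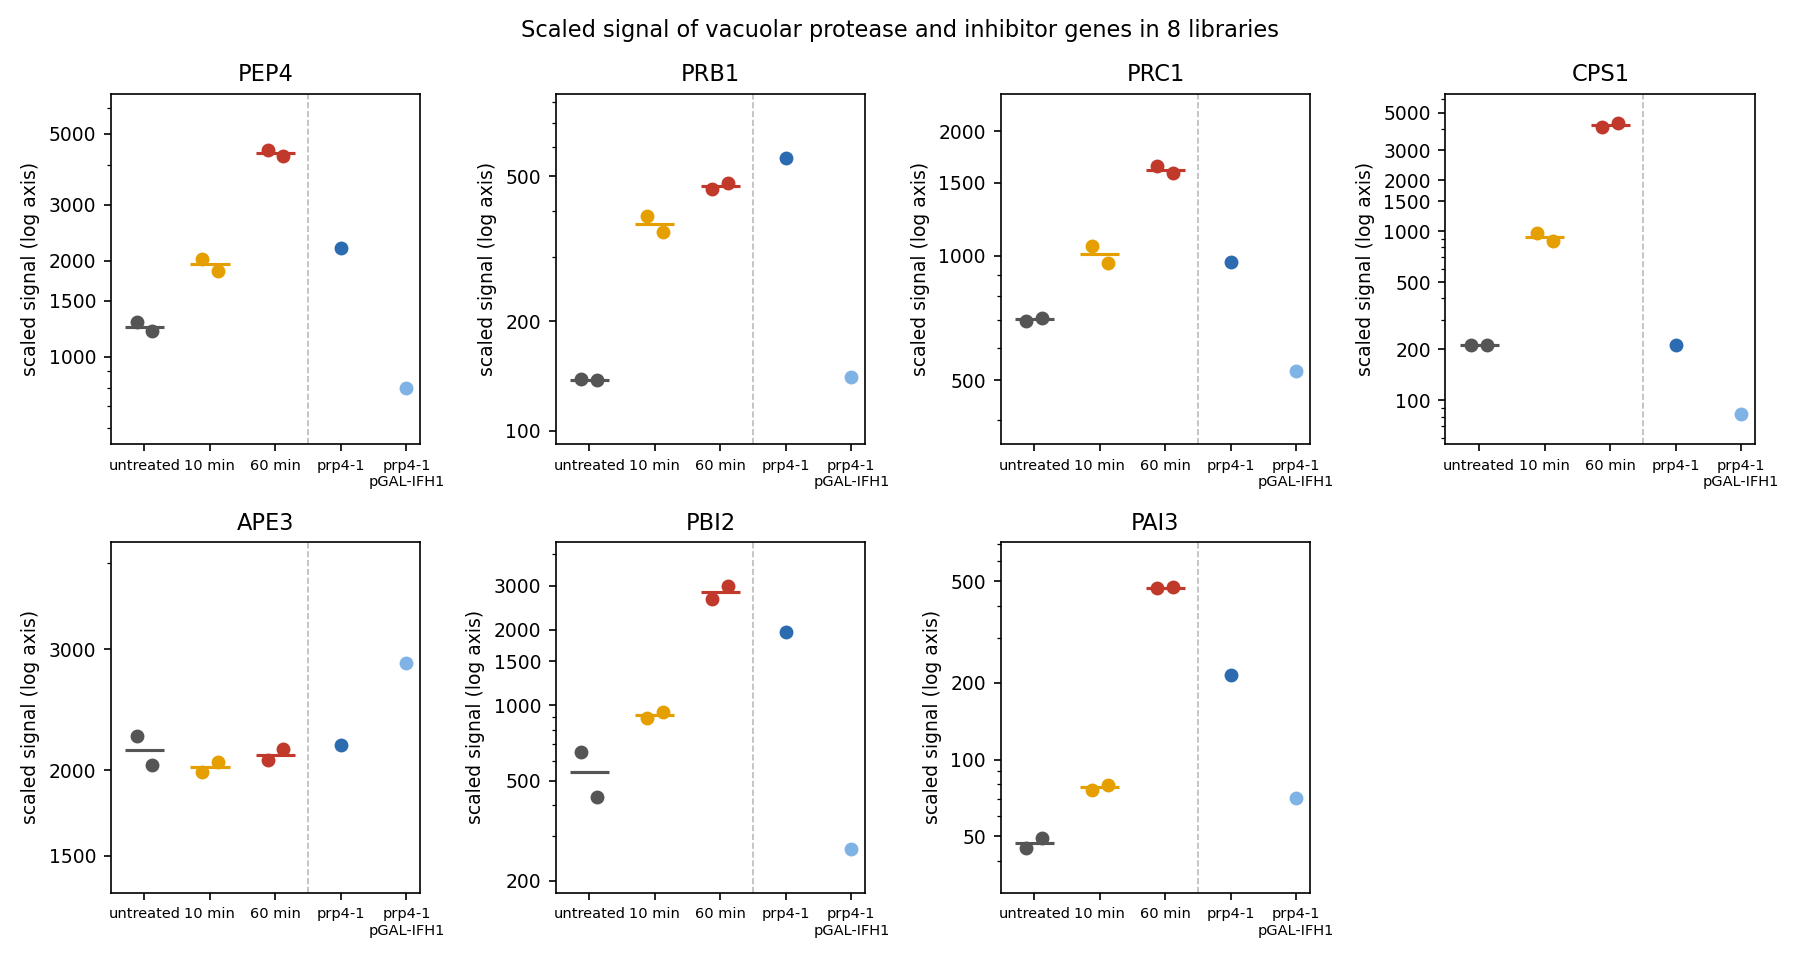
Scaled signal (log axis, its range set for each gene) of the 7 genes in the 8 libraries. Points are libraries, short lines the means of 2 libraries, and the dashed line parts the BY4741 groups from the prp4-1 pair. For every gene but APE3 the 3 BY4741 groups stand apart from each other in rising order.

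After rapamycin 6 of the 7 genes rose at 10 min and the same 6 were higher again at 60 min. The exception at both times was APE3. At 10 min the 6 called higher compare with 26.8% of the 6127 genes tested, and at 60 min with 38.6% (limma, Benjamini-Hochberg adjusted p under 0.05 over all genes tested). None was called lower, against 30.2% and 38.5% of all genes. With total-signal scaling the table as a whole gave 2560 calls up and 1149 down at 10 min, and 4003 and 1121 at 60 min. The median log2 change of the 7 was 0.72 at 10 min and 1.81 at 60 min, beside -0.02 and -0.00421 over all genes tested. The libraries of treated and untreated cells did not overlap, with the treated higher, for 6 of the 7 at each time, as for 36.8% and 43.9% of all genes.

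PEP4 encodes proteinase A, an aspartic protease that activates the other precursors and itself (YPL154C, chromosome XVI, 259714 to 260931, minus strand). Its scaled signal was 1286 and 1202 in the untreated libraries, 2031 and 1864 at 10 min and 4455 and 4259 at 60 min. The 3 groups did not overlap. The log2 change was 0.65 (SE 0.0838) at 10 min and 1.81 (SE 0.0838) at 60 min, a 3.50-fold rise (limma adjusted p = 0.000405 and 4.72e-07).

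PRB1 encodes proteinase B, a serine protease of the subtilisin family (YEL060C, chromosome V, 40046 to 41953, minus strand). Its libraries stood at 139 and 138 untreated, 388 and 351 at 10 min, and 460 and 478 at 60 min (scaled signal). Most of its rise was present at 10 min. The log2 change was 1.41 (SE 0.0726) at 10 min and 1.75 at 60 min (limma adjusted p = 2.31e-06 and 2.53e-07).

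PRC1 encodes carboxypeptidase Y, a serine carboxypeptidase widely used to study sorting to the vacuole (YMR297W, chromosome XIII, 861922 to 863520, plus strand). Its scaled signal was 695 and 708 untreated, 1054 and 960 at 10 min, and 1643 and 1582 at 60 min. All treated libraries lay above both untreated ones. PRC1 rose least of the 6 called genes at both times, by 0.52 (SE 0.0756) and 1.20 on the log2 scale (limma adjusted p = 0.000745 and 2.69e-06).

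CPS1 encodes carboxypeptidase S, a zinc carboxypeptidase that reaches the vacuole as a membrane-bound precursor (YJL172W, chromosome X, 97737 to 99467, plus strand). Its scaled signal was 212 and 213 untreated, 979 and 871 at 10 min, and 4148 and 4338 at 60 min. This was the largest change of the 7 at both times. The log2 change was 2.12 (SE 0.0798) at 10 min, rank 71 of 6127 from the highest, and 4.32 at 60 min, rank 41 (limma adjusted p = 4.56e-07 and 6.62e-09). On the linear scale the rise at 60 min was 19.9-fold.

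APE3 encodes aminopeptidase Y (YBR286W, chromosome II, 774700 to 776313, plus strand). Its scaled signal was 2240 and 2037 untreated, 1989 and 2059 at 10 min, and 2066 and 2148 at 60 min. The treated libraries of both times overlapped the untreated range. The log2 change was -0.08 at 10 min, with a 95% interval from -0.27 to 0.11, and -0.02 at 60 min, from -0.21 to 0.17 (limma adjusted p = 0.448 and 0.832). Scaling each library to its total signal instead turned these values to 0.14 (limma adjusted p = 0.177) and 0.66 (limma adjusted p = 4.87e-05). That scaling moved the median of all genes by 0.21 at 10 min and 0.66 at 60 min, by much the same as it moved APE3.

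PBI2 encodes the inhibitor of proteinase B, which also takes part in vacuole fusion (YNL015W, chromosome XIV, 605384 to 605611, plus strand). Its scaled signal was 652 and 432 in the untreated libraries, the widest gap between untreated libraries of the 7, and then 891 and 940 at 10 min and 2651 and 2986 at 60 min. The groups did not overlap. The log2 change was 0.79 (SE 0.174) at 10 min and 2.40 (SE 0.174) at 60 min (limma adjusted p = 0.00623 and 6.12e-06). The 10 min value was 0.49 without the untreated library numbered 24 and 1.08 without the one numbered 21 (limma adjusted p = 0.00214 and 1.93e-05).

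PAI3 encodes IA3, the inhibitor of proteinase A (YMR174C, chromosome XIII, 610159 to 610365, minus strand). Its scaled signal was 45.1 and 49.1 untreated, 76.3 and 79.7 at 10 min, and 469 and 475 at 60 min. The replicates were close in every group. The log2 change was 0.72 (SE 0.0720) at 10 min and 3.30 (SE 0.0720) at 60 min, a 9.84-fold rise (limma adjusted p = 9.6e-05 and 1.11e-08). By 60 min it was second to CPS1 in size among the 7.

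**Figure D2:**
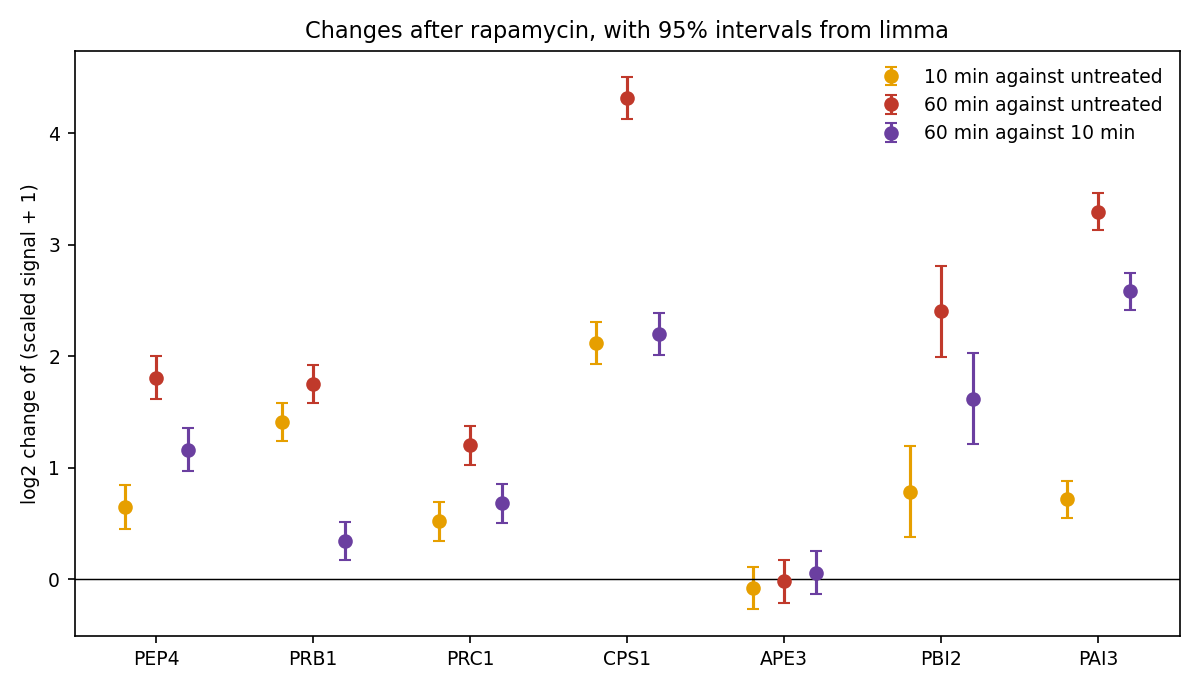
Log2 change of scaled signal plus 1 for the 7 genes, with 95% intervals from limma over 2 libraries a group. The intervals of APE3 hold 0 in each comparison, and those of the other 6 genes lie above 0, from PRB1 at 0.34 for 60 against 10 min to CPS1 at 4.32 for 60 min against untreated.

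The 60 min libraries were also tested directly against the 10 min ones. The 6 genes that had risen at 10 min were higher still at 60 min, against 35.4% of all genes called higher. No member was called lower, against 33.8%. The 60 min libraries lay above both 10 min libraries for all 7, against 44.8% of genes. PAI3 went on furthest, by a log2 difference of 2.58 (SE 0.0720, limma adjusted p = 6.38e-08), and CPS1 by 2.20 (SE 0.0798, limma adjusted p = 2.61e-07). The others were PBI2 at 1.62, PEP4 at 1.16, PRC1 at 0.68 and PRB1 at 0.34 (limma adjusted p = 0.00366 for PRB1). For APE3 it was 0.06, with a 95% interval from -0.13 to 0.25 (limma adjusted p = 0.548), or 0.52 under total-signal scaling (limma adjusted p = 0.000329), which moved the median of all genes by 0.45 and gave 3781 calls up and 908 down. PRB1 gained 1.41 by 10 min and 0.34 after it, while PAI3 gained 0.72 by 10 min and 2.58 after it. The courses of the 2 genes were not tested against each other.

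Each inhibitor was set beside the protease it blocks by the log2 ratio of their scaled signal within a library, which no scaling of a library can move. PBI2 over PRB1 was 2.23 and 1.65 in the untreated libraries, 1.20 and 1.42 at 10 min, and 2.53 and 2.64 at 60 min. The ratio was lowest at 10 min and highest at 60 min, and the 3 groups did not overlap. The 60 min mean lay 0.65 above the untreated mean, and this difference was 0.94 without the untreated library numbered 21 and 0.35 without the one numbered 24. PAI3 over PEP4 was -4.83 and -4.61 untreated, -4.73 and -4.55 at 10 min, and -3.25 and -3.16 at 60 min. Untreated and 10 min libraries overlapped, and both 60 min libraries stood above them, the means differing by 1.52 from untreated. With 2 libraries a group, no exact permutation test can give a two-sided p under 0.333, and none was made.

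**Figure D3:**
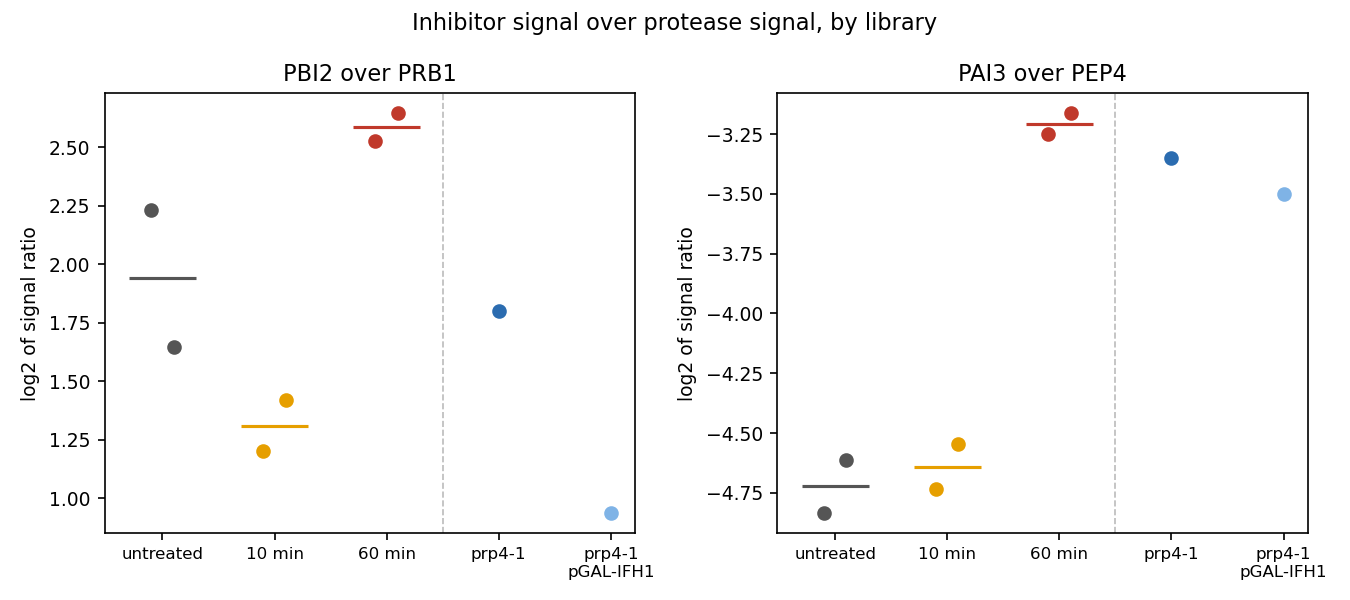
Log2 ratio of the scaled signal of each inhibitor gene over that of its protease gene, one point per library and short lines for means of 2. PBI2 over PRB1 dips to a mean of 1.31 at 10 min and reaches 2.59 at 60 min, and PAI3 over PEP4 moves from -4.72 untreated to -3.21 at 60 min.

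In the prp4-1 pair the same 6 genes lay the other way. All 6 were at least 1.5-fold lower in prp4-1 pGAL-IFH1 than in prp4-1, against 21.5% of 6222 genes, and none was 1.5-fold higher, against 18.2%. The median log2 ratio of the 7 was -1.46, beside 0.000819 over all genes. There was 1 library per strain, so these ratios have no replicate check and no test, and the difference in IFH1 cannot be told apart from the other differences between the strains. Their levels are not set on one scale with those of BY4741 here.

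PBI2 was the furthest down of the 7, at 1953 in prp4-1 and 268 in prp4-1 pGAL-IFH1 (scaled signal), which is 7.25-fold lower and rank 93 of 6222 from the lowest. PRB1 stood at 561 and 140, 3.98-fold lower. PAI3 was at 215 and 70.4, 3.03-fold lower, and PEP4 at 2196 and 798, 2.75-fold lower. CPS1, with 211 and 82.4, was 2.55-fold lower, so the gene with the largest rise after rapamycin stood behind PBI2, PRB1, PAI3 and PEP4 here. PRC1, at 968 and 526, was 1.84-fold lower. APE3 again stood apart, with 2175 in prp4-1 and 2866 in prp4-1 pGAL-IFH1, 1.32-fold higher. The log2 ratio of PBI2 over PRB1 was 1.80 in prp4-1 and 0.94 in prp4-1 pGAL-IFH1, and that of PAI3 over PEP4 was -3.35 and -3.50.

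**Figure D4:**
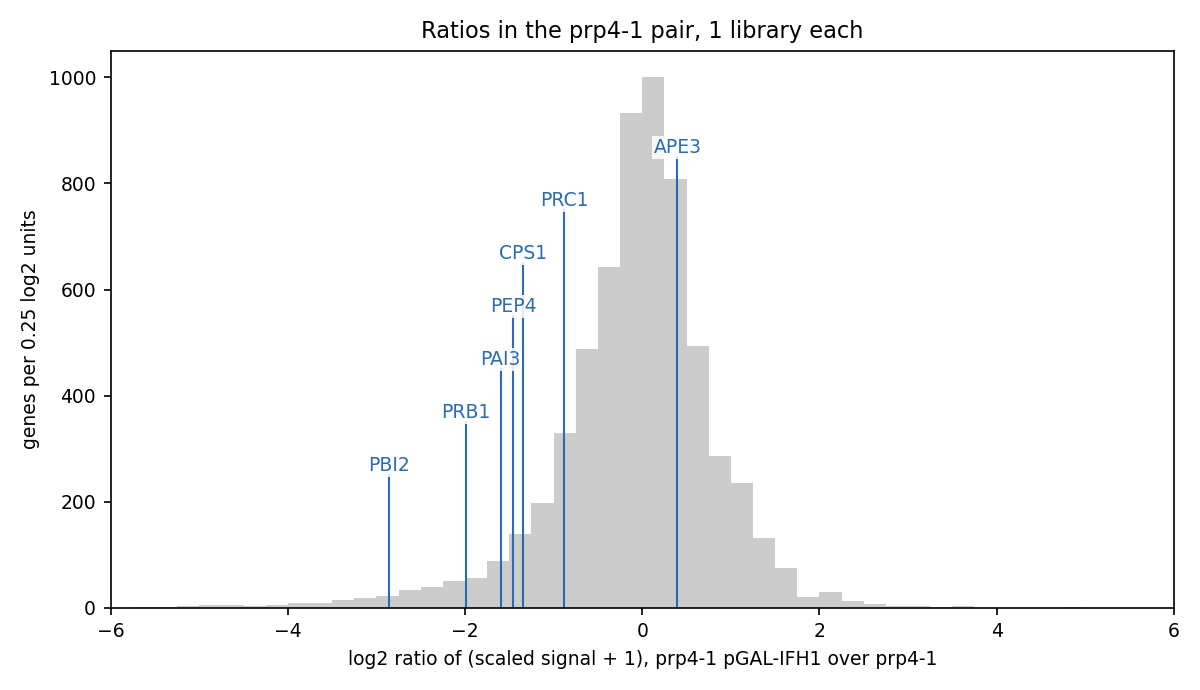
Histogram of the log2 ratio of scaled signal plus 1, prp4-1 pGAL-IFH1 over prp4-1, for 6222 genes with 1 library per strain, in bins of 0.25, with the 7 genes as labelled lines whose height has no meaning. The lines of 6 genes lie left of 0, from PRC1 at -0.88 to PBI2 at -2.86, and APE3 lies at 0.40.

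Other genes of the vacuole and of protein breakdown were counted in the same fit. Among 10 other vacuolar hydrolases, 9 were higher and 1 lower at both times, with a median log2 change of 1.03 at 10 min and 1.42 at 60 min. Of all genes 26.8% and 38.6% were called higher, and 30.2% and 38.5% lower. Under total-signal scaling 9 of the 10 were higher and none lower at 60 min, beside 4003 higher and 1121 lower of 6132 genes. LAP4, aminopeptidase I, which enters the vacuole by the Cvt pathway, went from a mean of 129 untreated to 468 at 10 min and 1759 at 60 min (scaled signal; log2 changes 1.85 and 3.76, limma adjusted p = 3.01e-07 and 6.29e-09). AMS1, the vacuolar alpha-mannosidase, went from a mean of 36.3 to 128 and 298 (limma adjusted p = 5.61e-08 at 60 min). The gene that was lower was YBR074W, at -0.50 and -0.68. In the prp4-1 pair 9 of these 10 were at least 1.5-fold lower, against 21.5% of 6222 genes. LAP4 was at -3.35 and AMS1 at -3.14 on the log2 scale, and YBR074W at 0.44. TFS1, which encodes an inhibitor of carboxypeptidase Y, had log2 changes of 1.85 at 10 min and 3.25 at 60 min (limma adjusted p = 3.07e-06 and 5.39e-08) and a log2 ratio of -1.90 in the prp4-1 pair. Thus all 3 protease inhibitor genes examined were called higher at both times.

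Relatives of the proteases were fewer. YSP3, a subtilisin-type relative of PRB1, was at 0.88 and 2.85 on the log2 scale at 10 and 60 min. YBR139W, a relative of PRC1 that is also among the 10 hydrolases, was at 1.93 and 2.33. RRT12, another subtilisin-type gene with a mean scaled signal of 1.18 in untreated cells, was not called at 10 min (-0.10, limma adjusted p = 0.797) and was at 1.31 at 60 min (limma adjusted p = 0.00355). The list's other gene, YOL153C, was not analysed here.

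Genes that carry amino acids across the vacuolar membrane were higher more often than not. Of 13 tested of 14, 10 were higher at each time, with 1 lower at 10 min and 2 at 60 min, and medians of 0.55 and 1.10. VBA1, a transporter of basic amino acids, was at 1.24 and 2.42, and RTC2 reached 4.56 at 60 min. YOL092W was lower at both times, at -0.77 and -0.78, and AVT3 at 60 min, at -0.23. Under total-signal scaling none was called lower at 60 min, with 13 higher of 14 tested. That scaling called 4003 of 6132 genes higher and 1121 lower at this time.

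The machinery that sorts proteases to the vacuole had smaller medians. Among 38 such genes the calls at 10 min were 19 higher and 3 lower (median 0.18), and at 60 min 22 higher and 6 lower (median 0.27). These stand beside 26.8% higher and 30.2% lower over all genes at 10 min, and 38.6% and 38.5% at 60 min. GGA1, an adaptor for traffic from the Golgi, was at 1.502 and 2.06, and PEP12, the endosomal syntaxin, at 1.62 at 60 min. VAM3, the vacuolar syntaxin, was at -0.62 at 10 min and, the lowest of the list, at -1.35 at 60 min (limma adjusted p = 5.02e-06). VPS4, at -0.18, and APL5, at -0.19, were the others called lower at 10 min, both close to the threshold (limma adjusted p = 0.046 and 0.0495). Under median-of-ratios scaling only 1 gene of the list was called lower at 10 min. Under total-signal scaling the calls were 27 higher and 1 lower at 10 min, and 35 and 1 at 60 min. The calls over all 6132 genes were then 2560 higher and 1149 lower at 10 min, and 4003 and 1121 at 60 min. This scaling moved the median of all genes by 0.21 and 0.66.

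The vacuolar ATPase, the proton pump that acidifies the vacuole, had few calls at 10 min. Of its 19 subunit and assembly genes, 2 were higher (STV1 at 0.33 and VPH2 at 0.34), against 26.8% of all genes. In the other direction 1 was lower (PKR1 at -0.59), against 30.2%, and the median was -0.09. At 60 min 3 were higher and 8 lower, against 38.6% and 38.5% of all genes, with a median of -0.12. The 3 were VMA13 at 0.46, VMA1 at 0.30 and VPH2 at 0.30, and the assembly genes PKR1 (-1.15) and VMA21 (-1.08) had the smallest p. Under total-signal scaling the medians were 0.12 at 10 min, with 5 higher and 1 lower, and 0.56 at 60 min, with 14 and 2. The medians over all genes were then 0.19 and 0.66. Of 6132 genes, 2560 were called higher and 1149 lower at 10 min, and 4003 and 1121 at 60 min. The sign of the list's median thus turns with the scaling, and the median lay below that of all genes under both scalings.

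Proteases outside the vacuole were mixed. Of 10 secretory pathway protease genes, 4 were higher and 3 lower at each time, with medians of 0.10 and 0.04. Over all genes 26.8% were called higher and 30.2% lower at 10 min, and 38.6% and 38.5% at 60 min. Calls in both directions are thus not particular to the lists of this paragraph. YPS6, of the yapsin family, rose by 1.21 and 3.88, MKC7, another yapsin, was at -0.77 and -2.65, and the pheromone-processing KEX2 at -0.37 and -0.57. YPS7, at -0.24, was the third lower at 10 min, and BAR1, the protease that degrades alpha factor, at -0.71, the third at 60 min. With total-signal scaling these became 6 higher and 1 lower at 10 min and 7 and 1 at 60 min. Among all 6132 genes it called 2560 higher and 1149 lower at 10 min, and 4003 and 1121 at 60 min. Of 12 cytosolic peptidase genes, 4 were higher and 2 lower at 10 min (median 0.15), and 8 higher and 3 lower at 60 min (median 0.49). With total-signal scaling they were 7 and 2 at 10 min, and 9 and 3 at 60 min. The bleomycin hydrolase gene LAP3 was at 1.90 and the aminopeptidase gene APE2 at 1.63 at 60 min. The methionine aminopeptidase gene MAP1 was at -0.90 and -1.78, DUG3 of glutathione breakdown at -0.72 and -0.98, and DUG2 at -0.95 at 60 min. These lists were not tested against each other.

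**Figure D5:**
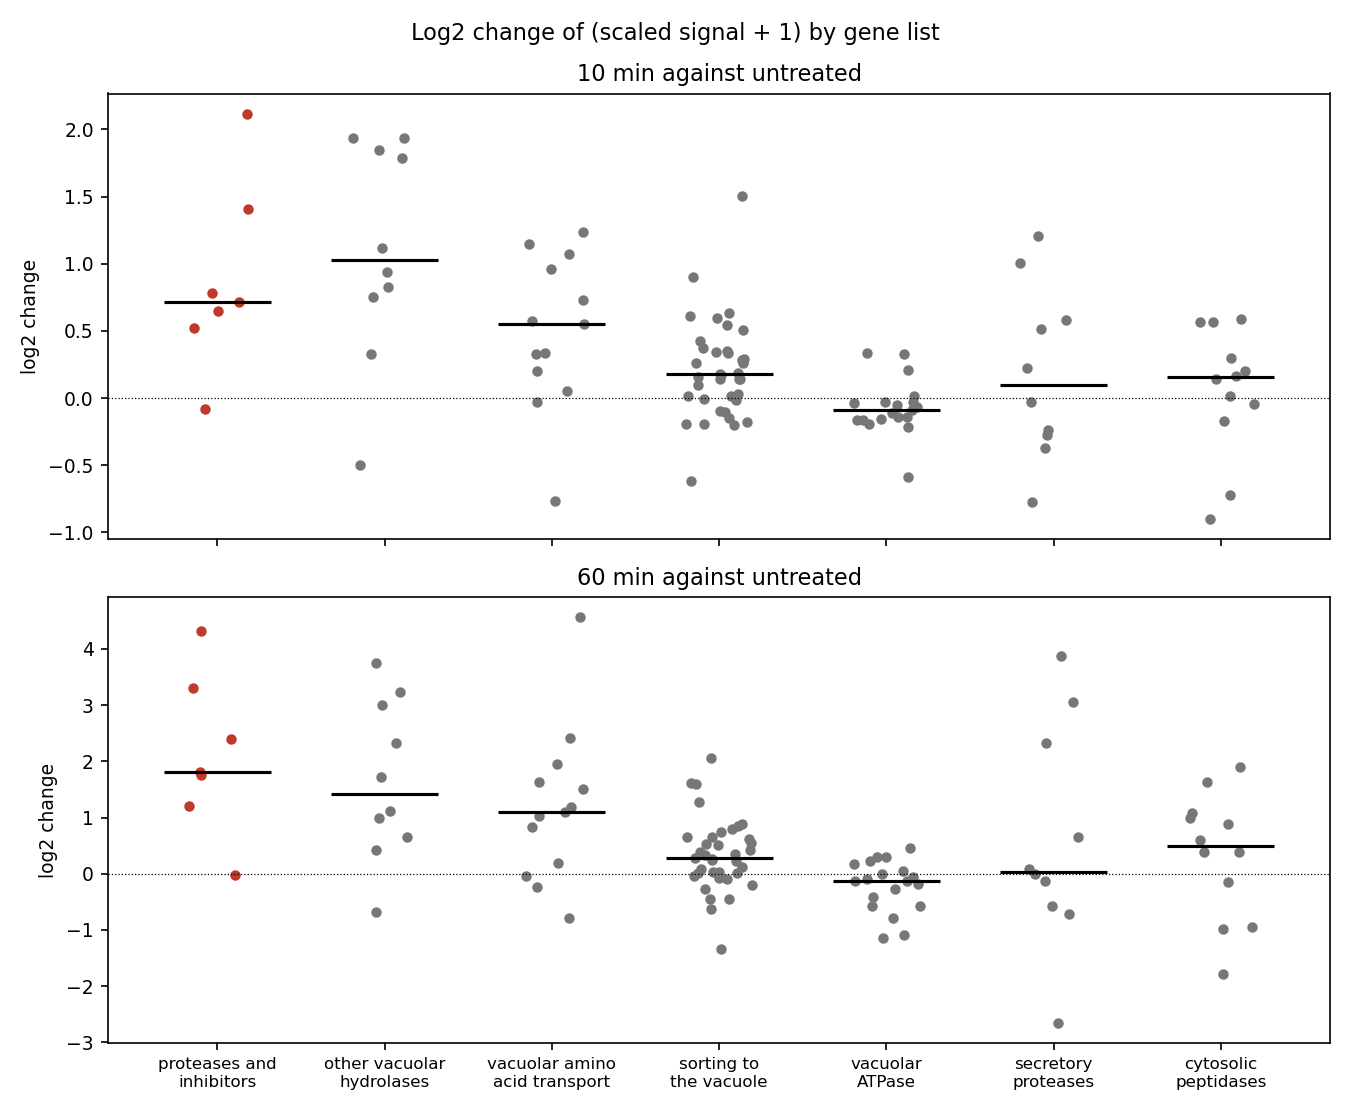
Log2 change of scaled signal plus 1 at 10 min (upper panel) and 60 min (lower panel) against untreated cells, one point per gene, with a line at each list's median and the proteases and inhibitors in red. Their medians, 0.72 and 1.81, stand beside 1.03 and 1.42 for other vacuolar hydrolases and -0.09 and -0.12 for the vacuolar ATPase.

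The genes with the most similar course to each member were found among 5575 genes with a mean scaled signal of at least 10, by the Euclidean distance of their log2 signal, centred on the untreated mean, over the 6 BY4741 libraries. They were YET1, YHR112C and POR1 for PEP4 (distances 0.126 to 0.151) and, for PRC1, YJL068C and NCR1 (0.0969 and 0.101). For PRB1 they were DCS1, YSC84 and the autophagy gene ATG7 (0.137 to 0.202). CPS1 had UGX2 at 0.218, then the allantoin breakdown gene DAL2 at 0.631 and PHM8 at 0.769. This distance grows with the size of a change, so the distances of nearest genes are not compared between members. YMR181C, YBR241C and GTT1 were nearest to PBI2 (0.239 to 0.411), and YNR068C, SUE1 and the heat shock gene HSP12 to PAI3 (0.259 to 0.305). For APE3 they were YAP3, EMC4 and WHI4 (0.0677 to 0.0886). Among the members themselves the smallest distance was 0.883, between PEP4 and PRC1, and the largest 6.87, between CPS1 and APE3. CPS1 and APE3 are the members with the largest and the smallest change, so their distance adds nothing to the values above.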

How the data were processed

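Libraries were strand-specific (dUTP) and made from poly(A) RNA, per the labels' protocols. The submitters' processing notes name sacCer3, TopHat and Bowtie, with no versions. The deposited table holds signal per gene, unscaled and as scaled by 1 factor per library, per the file headers. How the authors chose the factor or summarised reads per gene is not stated, so the depth is unknown and counting error cannot be given. The 8 unscaled columns were not used. The deposited gene models (other: exon coordinates from 1) gave strand and exons. Of 5449 symbols matched to the R64 reference, 98.2% had the same coordinates. No protein sequences were used.

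Columns were assigned to groups by name. They carry library numbers (21 to 26 in BY4741) but no replicate number. A linear model with an intensity trend (limma 3.58.1, R 4.3.3) was fitted on log2 of scaled signal plus 1 to the 6 BY4741 libraries together, with group as the only term, over 6127 genes with a mean of at least 1. All 7 members passed that filter. Fold changes are thus of signal plus 1. The prp4-1 pair was described by log2 ratios over 6222 genes.

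The members and the lists were chosen with earlier results of these data known. Named from each list were the 2 genes with the smallest p at 60 min, the 1 at 10 min, and every called gene where 3 or fewer were called in a direction, and for each member the 3 nearest genes. A gene selected by this rule is not reported here. The fit was tested on simulated data. Alternatives covered the pseudocount, filter, scaling, trend, groups fitted and each library left out. p-values rest on 1 spread per gene, taken between the 2 libraries of a group and pooled over the 3 groups. limma draws that spread toward a trend over all genes tested, so a gene's SE is the same in each comparison.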

Additional observations from a re-analysis of the deposited data

Results flagged for a closer look

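Scaled signal differed between the 2 times in rapamycin for 6 of the 7 genes, by limma's direct test of 60 against 10 min. The labels name no untreated culture held for 10 or 60 min, so exposure and further growth cannot be told apart. The log2 differences were 2.58 for PAI3, 2.20 for CPS1, 1.62 for PBI2, 1.16 for PEP4, 0.68 for PRC1 and 0.34 for PRB1, each higher at 60 min in both libraries. Over all genes tested, 35.4% were called higher and 33.8% lower in the same comparison, so such a difference is not particular to these genes. The untreated libraries do not enter the differences themselves.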

How the results depend on the processing

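The count of 6 genes called higher at 10 min, at 60 min and for 60 against 10 min was unchanged under pseudocounts of 0.1 and 5, no filter, a filter at a mean of 10, median-of-ratios scaling, no variance trend, a fit of only the 2 groups compared, and each library left out. Under total-signal scaling it was 6 at 10 min and 7 in the other 2 comparisons, where 4003 of 6132 genes (60 min) and 3781 of 6132 (60 against 10 min) were called higher. In the prp4-1 pair 6 genes stayed past 1.5-fold under all 3 alternatives, and under total-signal scaling PRC1 was at -0.76 and PBI2 at -2.74. The direction of APE3, never called under the scaling as deposited, turned under total-signal scaling at 10 min (0.14) and 60 min (0.66), and at 60 min also when the untreated library numbered 21 (0.0485) or the 60 min library numbered 23 (0.00819) was left out, within a range from -0.0884 to 0.0485 over the libraries left out. Without the untreated library numbered 24 or the 60 min library numbered 26 the sign at 60 min stayed as it was (-0.0884 and -0.0481). The main estimate was -0.02, with a 95% interval that holds 0. Why the sign turned was not tested. The change of PBI2 over PRB1 from untreated to 60 min ranged from 0.35 to 0.94 with a library left out, and that of PAI3 over PEP4 from 1.41 to 1.63, or 1.39 with a pseudocount of 5. The alternatives for these ratios were chosen after seeing the data. With a library left out, its group had 1, whose spread was taken to be that of the other groups. No paired analysis was possible because the columns carry library numbers but no replicate number that ties them to the labels, and library order was not used as a pairing.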
